A study of Mus musculus with 6 samples.

Results

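Semaphorins and their receptors, the plexins and neuropilins, were followed in the messenger RNA of cultured mouse neurons with and without Tlr7, a receptor that senses single-stranded RNA in endosomes. Members were taken by symbol from the deposited gene table: the genes named Sema3 to Sema7, Plxna to Plxnd, and both neuropilins, Nrp1 and Nrp2. The rule used no measured value and found 31 of the 25814 genes listed, made up of 20 semaphorins, 9 plexins and 2 neuropilins. The cells were primary neurons of cortex and hippocampus, mixed, from C57BL/6 mice, grown in Neurobasal and DMEM (1:1) with the supplement B27 and collected on day 18 in vitro. RNA was extracted with Trizol, made into libraries (TruSeq Stranded mRNA) and sequenced (NextSeq500). Wild-type (WT) and Tlr7-/- cultures gave 3 libraries each. Whether replicates of a genotype were separate cultures or separate animals is not stated, and p-values describe the spread between libraries, which may be technical.

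Semaphorins are secreted or membrane-bound proteins that share a sema domain and steer growing axons, dendrites and migrating cells, mostly by repulsion. Class 3 semaphorins are secreted, and apart from Sema3e they bind a neuropilin, which joins with an A-type plexin to carry the signal into the cell. The transmembrane semaphorins of classes 4, 5 and 6 and the lipid-anchored Sema7a bind plexins directly. The cytoplasmic part of a plexin inactivates small GTPases of the Ras family and acts on actin and microtubules. In cortex and hippocampus these proteins are known for the repulsion of axons, the growth of dendrites, the layering of inputs and the removal of spines and synapses.

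Total counts per library ranged from 23272450 to 25696625. Tlr7 itself had 4, 8 and 4 counts in the WT libraries and 3, 5 and 5 in the Tlr7-/- libraries, too few to check the genotype labels. Tlr7-/- replicates 2 and 3 stood apart from the rest. Their scores on the first principal component (62.8% of the variance) were 46.3 and 44.6, and those of the other 4 libraries lay between -29.0 and -15.6. Their library names also follow a style of their own, whereas Tlr7-/- replicate 1 is named like the WT libraries, so in replicates 2 and 3 genotype and naming style cannot be told apart. Members are therefore given for the whole Tlr7-/- group and again with replicate 1 separated from replicates 2 and 3. The last 2 comparisons come from 1 fit with 3 groups, use the same WT libraries and are not independent; the single library of replicate 1 is assumed to vary like the others. All 10 neuronal markers were expressed, and their summed level was 6629 to 6832 CPM (counts scaled by TMM to the library size) in WT and 6726 to 7073 CPM in Tlr7-/- libraries. The sum hides differences in both directions. In replicates 2 and 3, 5 of the 10 were higher and 3 lower than WT by the edgeR test (24.4% and 25.2% of all genes). Map2 was among the higher (log2 fold change 0.57 ± 0.06, SE) and Tubb3 among the lower (-0.98 ± 0.13). The 9 markers of cortical and hippocampal neurons that were in the table summed to 483 to 513 CPM in WT and 419 to 499 CPM in Tlr7-/- libraries. Of these 9, 2 were higher and 4 lower in replicates 2 and 3 by the same test. The cultures also held glia: 12 astrocyte markers summed to 5089 to 5333 CPM in WT and 4299 to 5333 CPM in Tlr7-/- libraries. In Tlr7-/- replicate 1, 10 of the 12 astrocyte markers had negative log2 fold changes against WT, among them Gfap (-1.07 ± 0.11, SE) and Ntsr2 (-0.92 ± 0.18). In replicates 2 and 3, 2 of the 12 were higher and 5 lower by the edgeR test (24.4% and 25.2% of all genes). For 11 microglial markers the sums were 2.53 to 23.6 CPM and 4.24 to 21.9 CPM.

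Of the 31 genes, 30 were counted above the expression filter (19 of the 20 semaphorins, the 9 plexins and both neuropilins). Levels of different genes were compared in the authors' RPKM, which divide by gene length. In the WT cultures, glia included, most semaphorin RNA per length came from transmembrane members. Sema6b, a transmembrane ligand of A-type plexins, was the most abundant at 30.1, 30.9 and 30.9 RPKM in WT replicates 1 to 3 (mean 30.6 ± 0.426, SD, n = 3). Sema7a, whose receptor in neurons is Plxnc1, had a mean of 21.8 ± 1.21 RPKM (SD, n = 3), and its range in WT lay wholly below that of Sema6b. Class 4 genes made up 36.3% of the summed semaphorin RPKM, class 6 genes 34.2%, Sema7a 14.9%, class 5 genes 7.39% and class 3 genes 7.23%. Sema4g (13.9 RPKM), Sema4f (11.5 RPKM) and Sema4d (9.78 RPKM), the last a ligand of Plxnb1, led class 4.

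The secreted class 3 ligands were the least abundant semaphorins. Sema3e, Sema3a and Sema3c had WT means of 2.80, 2.55 and 2.42 RPKM, with ranges that overlapped between neighbours in that order. Sema3f, a ligand of Nrp2, had 1.71 RPKM and Sema3d 0.805 RPKM. Sema3b (0.253 RPKM) and Sema3g (0.0783 RPKM) closed the order, each with a WT range apart from its neighbours.

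Receptors were led by Plxna1 (25.6 ± 0.768 RPKM, SD, n = 3), a co-receptor of Sema3a that also binds class 6 ligands, and by Plxnd1 (23.2 ± 1.18 RPKM), the receptor of Sema3e. The A-type plexins held 48.1% of the summed plexin RPKM, the B-type 22.2%, Plxnd1 17.6% and Plxnc1 12.1%. Within the A type, Plxna2 (18.1 RPKM) and Plxna4 (13.8 RPKM) followed Plxna1, and Plxna3 (5.95 RPKM) was the lowest. Plxnb2 (16.1 RPKM) and Plxnb1 (10.9 RPKM) were well above Plxnb3 (2.20 RPKM). Nrp1, the binding receptor of Sema3a, had 8.85 ± 0.705 RPKM (SD, n = 3), and Nrp2, that of Sema3f, had 3.52 ± 0.252 RPKM (SD, n = 3), without overlap in WT. Over the whole order, 15 of the 30 pairs of neighbouring genes had WT ranges that did not overlap, and the other 15 could not be ranked beyond their spread.

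**Figure D1:**
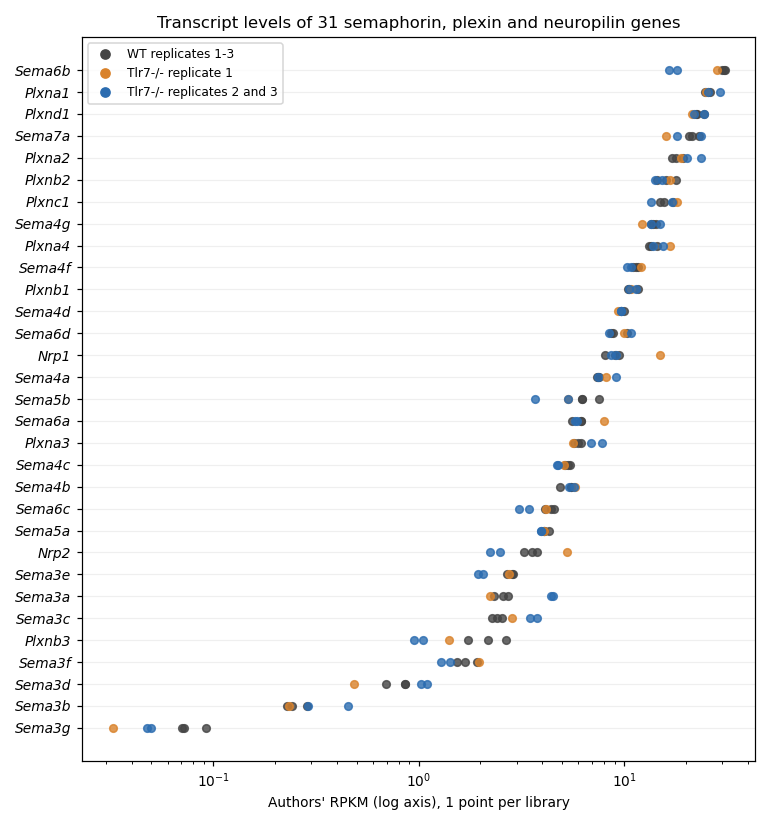
Level of each of the 31 genes in the authors' RPKM (log axis), 1 point per library, ordered by the WT mean. The order runs from Sema6b at 30.6 RPKM in WT to Sema3g at 0.0783 RPKM, and the class 3 semaphorins lie at the lower end.

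A group of 4 class 3 genes lies on chromosome 5 in the order Sema3d, Sema3a, Sema3e and Sema3c, within 5.35 Mb (12383385 to 17730268). Sema3b and Sema3f lie on chromosome 9 with 0.0723 Mb between them, and Plxnb3 and Plxna3 lie within 0.588 Mb on chromosome X. Genes outside the 31 that lie between them were not looked at. The longest transcripts of the chromosome 5 genes have the low GC contents of 39.2%, 40.8%, 42.0% and 42.7% in that order. Sema6b, at 63.5%, has the highest GC content of the 30 tested genes. RefSeq start regions (build GRCm38.p6) were matched for 26 of the 31 genes. Not every gene with a large difference in the comparisons that follow is shown: Nrp1, Nrp2, Sema3d and Plxnb3 are left out. The windows of Nrp2 and Plxnb3 hold exon sequence. The 3 windows printed are of genes with large differences as counted, or differences in opposite directions. Each runs for 250 bases up to the annotated start, 5′ to 3′ on the strand of the gene, with the GC box GGGCGG (or its reverse complement CCGCCC) in capitals.
Sema3a, chr5:13396534-13396783, plus strand: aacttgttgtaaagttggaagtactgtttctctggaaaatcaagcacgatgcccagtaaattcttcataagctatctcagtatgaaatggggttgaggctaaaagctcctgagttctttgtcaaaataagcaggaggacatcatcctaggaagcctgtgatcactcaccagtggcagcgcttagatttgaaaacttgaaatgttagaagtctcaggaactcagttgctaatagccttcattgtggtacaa
Sema3e, chr5:14025026-14025275, plus strand: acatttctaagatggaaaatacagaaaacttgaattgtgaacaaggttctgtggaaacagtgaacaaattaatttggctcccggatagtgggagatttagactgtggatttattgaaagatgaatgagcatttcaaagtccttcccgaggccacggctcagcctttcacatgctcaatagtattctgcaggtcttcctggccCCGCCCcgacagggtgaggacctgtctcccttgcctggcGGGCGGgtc
Sema6b, chr17:56140344-56140593, minus strand: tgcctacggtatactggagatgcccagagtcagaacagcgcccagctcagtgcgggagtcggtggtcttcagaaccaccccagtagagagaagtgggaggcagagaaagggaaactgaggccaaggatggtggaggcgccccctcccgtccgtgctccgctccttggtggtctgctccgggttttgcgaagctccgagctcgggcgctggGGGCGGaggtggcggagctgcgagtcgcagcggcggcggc

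The Sema3a window is 40.8% GC, holds 2 CpG and no GC box, and its RefSeq start lies 271 kb inside the gene as deposited. The Sema3e window is 48.0% GC with 7 CpG and 2 GC boxes, and the Sema6b window 66.0% GC with 20 CpG and 1 GC box. A GC box on either strand was present in 20 of the 26 matched windows (76.9%), against 32.7% of 32817 windows of the same length over all genes. The median was 15.5 CpG per window among the 26 and 6 over all windows. The cyclic AMP response element TGACGTCA was in 0 of the 26 and in 1.55% of all windows, the E-box CACGTG in 1 and in 6.02%, and the letters TATAAA in 0 and in 12.4%. These counts describe letters in the windows and no factor's binding.

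The first comparison set the 3 Tlr7-/- libraries against the 3 WT libraries. None of the 30 tested genes passed the threshold of 0.05 on the edgeR adjusted p (0 of 13947 genes, 0.0%), with 6 at an unadjusted p under 0.05, where 28.2% of all genes had one. Those were Sema3c (log2 fold change 0.54 ± 0.14, SE), Plxna2 (0.27 ± 0.11) and Plxna4 (0.21 ± 0.09), all higher, and Plxnb3 (-0.90 ± 0.20), Sema6b (-0.50 ± 0.18) and Sema5b (-0.43 ± 0.16), all lower. With each library's GC and length trend removed, Plxna2 (-0.02), Plxna4 (-0.06) and Sema6b (0.04) changed sign, Sema3c (0.25) and Sema5b (-0.18) moved towards 0 and Plxnb3 had -0.94. DESeq2 called 2 of them, Plxnb3 (adjusted p = 0.00404) and Sema3c (adjusted p = 0.0182), among 12.8% of all genes. The median log2 fold change was 0.04 over the 30 and 0.0014 over all genes tested. Without Tlr7-/- replicate 1, edgeR called 11 of the 30 and 49.1% of all genes. In these bulk libraries, fewer cells of a type and less RNA per cell cannot be told apart.

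Sorted by single libraries, 8 of the 30 genes (26.7%) had all 3 Tlr7-/- values beyond the 3 WT values, below the 32.7% of all tested genes. Plxna4, Sema3c, Sema4a and Sema4b were above in all 3, and Plxnb3, Sema4c, Sema5b and Sema6b below in all 3 (16.5% and 16.2% of all genes). With replicates 2 and 3 alone set against WT, 11 of the 30 were above and 8 below (63.3% in either direction), where 34.0% of all genes were above and 34.4% below (68.4%). For replicate 1 alone the counts were 10 above and 11 below (70.0%), where 32.0% and 32.2% of all genes were (64.2%). Sema4c shows how small such a separation can be: it had 25.0, 24.3 and 23.5 CPM in WT and 23.4, 22.8 and 23.1 CPM in Tlr7-/- replicates 1 to 3, with a difference of -0.07 ± 0.08 (SE; edgeR adjusted p = 0.572) on the log2 scale. Sema3g, a secreted ligand of Nrp2 that fell under the expression filter, had 9, 8 and 11 counts in WT and 4, 6 and 6 in Tlr7-/- libraries. The counts did not overlap, and the two-sided exact permutation test gave p = 0.1, the smallest that 3 against 3 allows.

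Each part of the Tlr7-/- group was then set against WT. Nrp2 differed from WT in opposite directions in the 2 parts, and some members, such as Plxnb3 and Sema5b, lay below WT in both. In replicates 2 and 3, 12 of the 30 genes (40.0%) passed the edgeR test against WT, 6 higher and 6 lower, where 49.6% of all genes passed it (24.4% higher and 25.2% lower). The median size of the log2 fold change, without its sign, was 0.17 over the 30 and 0.31 over all genes. In replicate 1, 2 of the 30 (6.67%) passed it, both neuropilins and both higher, where 1.43% of all genes passed (0.889% higher). Replicates 2 and 3 differed from replicate 1 in 10 of the 30 (33.3%), 5 higher and 5 lower, where 31.6% of all genes did (15% higher and 16.6% lower). In replicates 2 and 3 the members' shares are near or under the background and are no result about the family as such. The replicate 1 comparison rests on 1 library, and 64.2% of all genes had a value there outside the WT range. Its 2 calls became 0 without WT replicate 2, where 18 genes were called in all against 200 with every library, and 1 without WT replicate 1 (34 in all).

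**Figure D2:**
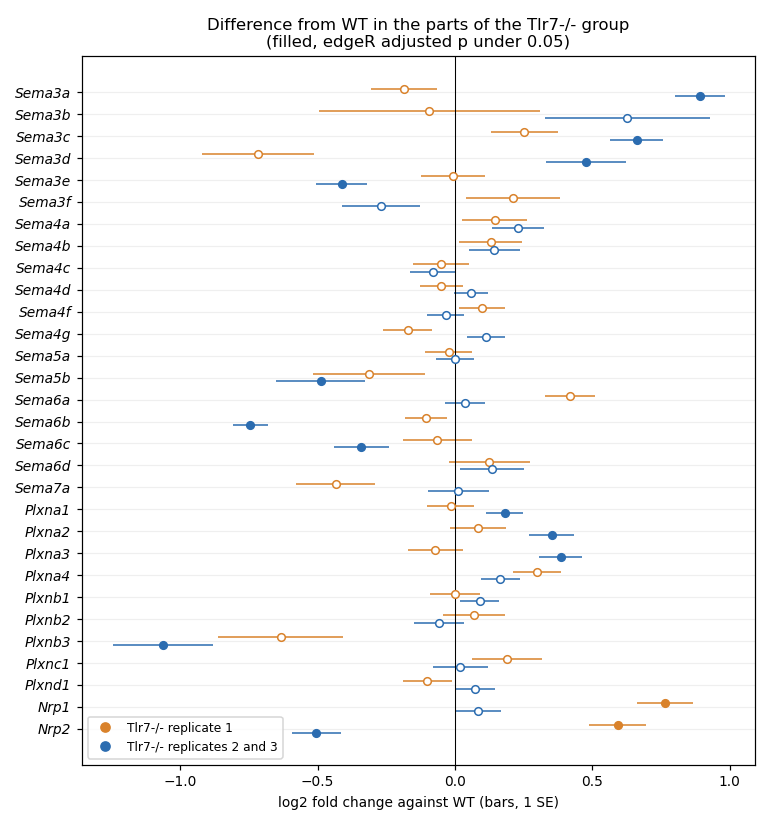
The log2 fold change against WT of each of the 30 tested genes, with bars of 1 SE, for Tlr7-/- replicate 1 (orange) and for replicates 2 and 3 (blue); filled points have an edgeR adjusted p under 0.05. The filled orange points are Nrp1 and Nrp2, and Nrp2 has filled points on opposite sides of 0.

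Among the secreted ligands, 3 of the 6 tested class 3 genes were higher and 1 was lower in Tlr7-/- replicates 2 and 3 (24.4% and 25.2% of all genes), and none of the 6 passed the test in replicate 1. Sema3a (ENSMUSG00000028883, chromosome 5, 13125414 to 13602565, plus strand), the founding repellent of the class, had 16.3, 19.0 and 17.8 CPM in WT replicates 1 to 3, 15.5 CPM in Tlr7-/- replicate 1 and 33.1 and 32.4 CPM in replicates 2 and 3. Replicates 2 and 3 lay far above the other 4 libraries, and replicate 1 lay just below WT. Against WT the log2 fold change was 0.89 ± 0.09 (SE; edgeR adjusted p = 7.18e-05) in replicates 2 and 3, a 1.85-fold difference, and -0.18 ± 0.12 (SE; edgeR adjusted p = 0.517) in replicate 1. Replicates 2 and 3 exceeded replicate 1 by 1.08 ± 0.13 (SE; edgeR adjusted p = 0.000511) on the log2 scale.

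Sema3c (ENSMUSG00000028780, chromosome 5, 17574281 to 17730268, plus strand), which binds both neuropilins, had 14.3, 14.97 and 13.4 CPM in WT, 17.0 CPM in Tlr7-/- replicate 1 and 21.7 and 23.3 CPM in replicates 2 and 3. The 3 Tlr7-/- values all lay above WT, with replicate 1 in between. The log2 fold change was 0.66 ± 0.10 (SE; edgeR adjusted p = 0.000468) in replicates 2 and 3 and 0.25 ± 0.12 (SE; edgeR adjusted p = 0.365) in replicate 1. Sema3d (ENSMUSG00000040254, chromosome 5, 12383385 to 12588948, plus strand), another secreted ligand, parted the Tlr7-/- libraries in both directions: it had 6.85, 6.82 and 5.50 CPM in WT, 3.88 CPM in replicate 1 and 9.20 and 8.59 CPM in replicates 2 and 3. Against WT it differed by 0.48 ± 0.15 (SE; edgeR adjusted p = 0.0224) in replicates 2 and 3 and by -0.72 ± 0.20 (SE; edgeR adjusted p = 0.133) in replicate 1, which did not pass. The difference between the Tlr7-/- libraries themselves was 1.19 ± 0.21 (SE), or 2.29-fold, and 0.69 ± 0.23 (SE) with the GC and length trend removed. After that removal Sema3d was below WT in both parts, at -0.16 in replicates 2 and 3 and -0.85 in replicate 1. The call against WT was lost when WT replicate 3 or either of Tlr7-/- replicates 2 and 3 was left out (edgeR adjusted p up to 0.101).

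Sema3e (ENSMUSG00000063531, chromosome 5, 14025276 to 14256689, plus strand), the ligand of Plxnd1 that needs no neuropilin, lies between Sema3a and Sema3c and went the other way. It had 21.3, 19.7 and 20.8 CPM in WT, 20.5 CPM in Tlr7-/- replicate 1 and 14.98 and 15.995 CPM in replicates 2 and 3. Replicate 1 was within the WT range, and replicates 2 and 3 were below it. In replicates 2 and 3 the log2 fold change was -0.41 ± 0.09 (SE; edgeR adjusted p = 0.00532), and its receptor Plxnd1 had 0.07 ± 0.07 (SE; edgeR adjusted p = 0.411). The remaining class 3 ligands, Sema3b and Sema3f, did not pass the test in either part of the Tlr7-/- group: Sema3b had log2 fold changes of 0.63 ± 0.30 (SE) in replicates 2 and 3 and -0.09 ± 0.40 in replicate 1, and Sema3f -0.27 ± 0.14 and 0.21 ± 0.17. Sema3b rested on 25 to 53 counts per library, which leaves wide intervals.

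**Figure D3:**
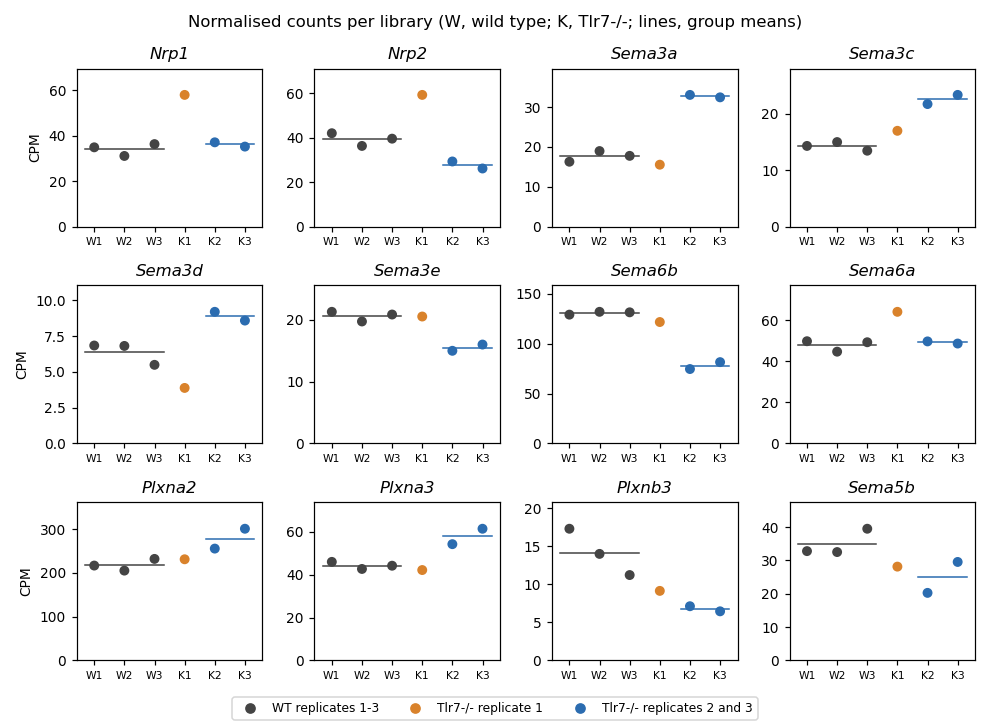
Normalised counts (CPM) of 12 genes in each of the 6 libraries; grey points are WT, orange is Tlr7-/- replicate 1 and blue are replicates 2 and 3, with lines at the group means and axes that start at 0. Sema3a and Sema6b set replicates 2 and 3 apart from the other 4 libraries, and Nrp1 and Sema6a set replicate 1 apart from the other 5.

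Of the 13 transmembrane and anchored semaphorins, 3 (23.1%) were lower in Tlr7-/- replicates 2 and 3 and none was higher, where 25.2% of all genes were lower and 24.4% higher. The direction of 2 of the 3, Sema6b and Sema6c, turned once a trend with GC content, described further on, was removed. Sema5b, the other of the 3, moved from -0.49 to -0.11 with that removal and lost its call. Sema6b (ENSMUSG00000001227, chromosome 17, 56123085 to 56140343, minus strand) had 129, 132 and 131 CPM in WT, 122 CPM in Tlr7-/- replicate 1 and 74.5 and 81.4 CPM in replicates 2 and 3. The WT libraries agreed closely, and replicates 2 and 3 lay far below them. Its log2 fold change was -0.74 ± 0.06 (SE; edgeR adjusted p = 2.96e-05) in replicates 2 and 3, -0.10 ± 0.08 (SE; edgeR adjusted p = 0.566) in replicate 1, and -0.64 ± 0.08 (SE; edgeR adjusted p = 0.000665) between these libraries. With the GC and length trend removed it had 0.11 in replicates 2 and 3 against WT, and the call was lost.

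Sema6c (ENSMUSG00000038777, chromosome 3, 95160457 to 95174024, plus strand), a relative of Sema6b, had 20.2, 20.9 and 18.9 CPM in WT, 19.1 CPM in Tlr7-/- replicate 1 and 14.9 and 16.7 CPM in replicates 2 and 3. Replicates 2 and 3 differed from WT by -0.34 ± 0.10 (SE; edgeR adjusted p = 0.0191) on the log2 scale, a call that was lost without WT replicate 1, WT replicate 2 or Tlr7-/- replicate 2 (up to 0.121). Sema5b (ENSMUSG00000052133, chromosome 16, 35541145 to 35664732, plus strand), a transmembrane ligand with thrombospondin repeats, had 32.8, 32.5 and 39.5 CPM in WT, 28.1 CPM in replicate 1 and 20.3 and 29.5 CPM in replicates 2 and 3. All Tlr7-/- values were below WT, but replicates 2 and 3 were further from each other than replicate 3 was from replicate 1. Replicates 2 and 3 together had a difference of -0.49 ± 0.16 (SE; edgeR adjusted p = 0.0374). It ran from -0.79 to -0.24 when a library was left out, and the call was lost without any 1 of the WT libraries or without Tlr7-/- replicate 2 (up to 0.181). Its relative Sema5a had 0.00 ± 0.07 (SE).

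Sema6a, a ligand of Plxna2 and Plxna4 that also acts as a receptor, was the member closest to the threshold in Tlr7-/- replicate 1 without passing. It had 49.8, 44.7 and 49.3 CPM in WT, 64.1 CPM in replicate 1 and 49.7 and 48.6 CPM in replicates 2 and 3. Replicate 1 was above the other 5 libraries. The difference was 0.42 ± 0.09 (SE; edgeR adjusted p = 0.0585) between replicate 1 and WT, and -0.38 ± 0.10 (SE; edgeR adjusted p = 0.0158) between replicates 2 and 3 and replicate 1. Without WT replicate 3 the first of these passed (0.0473).

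Sema7a had 76.5, 73.5 and 81.7 CPM in WT, 57.2 CPM in Tlr7-/- replicate 1 and 67.2 and 88.6 CPM in replicates 2 and 3. The replicate 1 value was the lowest of the 6, and replicates 2 and 3 fell on either side of the WT range. Replicate 1 differed from WT by -0.43 ± 0.14 (SE; edgeR adjusted p = 0.199), and passed once replicate 2 or replicate 3 was left out of the fit (from 0.0413). As counted, the 6 class 4 genes showed small differences from WT. In replicates 2 and 3 their log2 fold changes ran from -0.08 (Sema4c) to 0.23 (Sema4a), and in replicate 1 from -0.17 (Sema4g) to 0.14 (Sema4a). For Sema4d, the approximate 95% interval in replicates 2 and 3 was -0.06 to 0.18. With the GC and length trend removed, Sema4a (0.43), Sema4b (0.30) and Sema4g (0.28) passed the test in replicates 2 and 3. The values that follow are again as counted. Sema4g passed between replicates 2 and 3 and replicate 1, at 0.28 ± 0.09 (SE; edgeR adjusted p = 0.0442), and lost the call without WT replicate 1, WT replicate 2 or Tlr7-/- replicate 2. Sema4a had 0.23 ± 0.09 (SE) in replicates 2 and 3 and passed without Tlr7-/- replicate 2, as did Sema6d and Plxna4.

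Of the 9 plexins, 3 were higher and 1 was lower in Tlr7-/- replicates 2 and 3, where 24.4% of all genes were higher and 25.2% lower. The higher ones were Plxna1, Plxna2 and Plxna3, of which Plxna3 alone kept its call with the GC and length trend removed (Plxna2 -0.01, Plxna1 0.09). Plxna3 (ENSMUSG00000031398, chromosome X, 74329066 to 74344689, plus strand), which pairs with Nrp2 in the response to Sema3f, had 46.0, 42.7 and 44.2 CPM in WT, 42.2 CPM in Tlr7-/- replicate 1 and 54.3 and 61.5 CPM in replicates 2 and 3. Replicates 2 and 3 were above the other 4 libraries. Their log2 fold change was 0.39 ± 0.08 (SE; edgeR adjusted p = 0.00281) against WT and 0.46 ± 0.11 (SE; edgeR adjusted p = 0.0115) against replicate 1.

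Plxna2 (ENSMUSG00000026640, chromosome 1, 194618218 to 194816869, plus strand), a receptor of Sema6a, had 217, 205 and 232 CPM in WT, 231 CPM in Tlr7-/- replicate 1 and 256 and 301 CPM in replicates 2 and 3. Replicate 1 was within the WT range, and the log2 fold change in replicates 2 and 3 was 0.35 ± 0.08 (SE; edgeR adjusted p = 0.00583). Plxna1 (ENSMUSG00000030084, chromosome 6, 89316314 to 89362620, minus strand) had 248, 240.1 and 254 CPM in WT, 245 CPM in replicate 1 and 263 and 299 CPM in replicates 2 and 3, and differed from WT by 0.18 ± 0.07 (SE; edgeR adjusted p = 0.0483) there. That call was at the edge of the threshold and was lost without any 1 of the WT libraries, without Tlr7-/- replicate 1 or without Tlr7-/- replicate 3 (up to 0.299). Plxna4, which with Nrp1 transmits the Sema3a signal, had 201, 187 and 182 CPM in WT and 234, 201 and 225 CPM in Tlr7-/- replicates 1 to 3. All 3 Tlr7-/- values were above WT, replicate 1 the most, but the log2 fold changes of 0.30 ± 0.09 (SE; edgeR adjusted p = 0.140) in replicate 1 and 0.17 ± 0.07 (SE; edgeR adjusted p = 0.0748) in replicates 2 and 3 did not pass.

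Plxnb3 (ENSMUSG00000031385, chromosome X, 73757090 to 73772514, plus strand), a receptor of Sema5a that in the brain is known from oligodendrocyte-lineage cells, had the largest difference of the 30 genes between replicates 2 and 3 and WT. It had 17.3, 14.0 and 11.2 CPM in WT, 9.15 CPM in Tlr7-/- replicate 1 and 7.13 and 6.46 CPM in replicates 2 and 3. The 3 Tlr7-/- values were below the 3 WT values, although the WT values themselves spread from 11.2 to 17.3 CPM. The log2 fold change was -1.06 ± 0.18 (SE; edgeR adjusted p = 0.00135) in replicates 2 and 3 and -0.63 ± 0.23 (SE; edgeR adjusted p = 0.229) in replicate 1, and the difference between these libraries did not pass at -0.43 ± 0.24 (SE; edgeR adjusted p = 0.207).

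Oligodendrocyte-lineage markers moved with Plxnb3. The 20 markers, led by Olig1, Gpr17 and Pdgfra in WT, summed to 1643 to 1797 CPM in WT, 1204 CPM in Tlr7-/- replicate 1 and 886 and 987 CPM in replicates 2 and 3. Of the 18 tested, 13 were lower and 0 higher in replicates 2 and 3 (25.2% and 24.4% of all genes), and 1 was lower in replicate 1 (0.545%). All 3 Tlr7-/- values were below WT for 14 of them (16.2% of all genes). Mog, a marker of myelinating cells, was at 0 in Tlr7-/- replicate 2. The part of these cells in the Plxnb3 result was not tested.

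The other plexins did not pass the test in either part of the Tlr7-/- group. In replicates 2 and 3, Plxnb1, the receptor of Sema4d, had a log2 fold change of 0.09 ± 0.07 (SE; approximate 95% interval -0.05 to 0.23). There Plxnb2, a receptor of class 4 ligands, had -0.06 ± 0.09 (-0.24 to 0.12). Plxnc1 had 123, 128 and 142 CPM in WT and 149.5, 148 and 118 CPM in Tlr7-/- replicates 1 to 3. Its value in replicate 1 was the highest and that in replicate 3 the lowest, with log2 fold changes of 0.19 ± 0.13 (SE; edgeR adjusted p = 0.524) in replicate 1 and 0.02 ± 0.10 (SE; edgeR adjusted p = 0.883) in replicates 2 and 3. Misses of the threshold do not show that these genes were equal between genotypes.

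Both neuropilins differed between the Tlr7-/- libraries. Nrp1 (ENSMUSG00000025810, chromosome 8, 128358604 to 128503363, plus strand) had 34.9, 31.1 and 36.4 CPM in WT, 58.1 CPM in Tlr7-/- replicate 1 and 37.1 and 35.3 CPM in replicates 2 and 3. Replicate 1 was far above the other 5 libraries, and replicates 2 and 3 were close to WT. Replicate 1 exceeded WT by 0.77 ± 0.10 (SE; edgeR adjusted p = 0.0143) on the log2 scale, or 1.70-fold, whereas replicates 2 and 3 had 0.08 ± 0.08 (SE; edgeR adjusted p = 0.434). The difference between replicates 2 and 3 and replicate 1 was -0.68 ± 0.11 (SE; edgeR adjusted p = 0.00204). The call in replicate 1 was lost without WT replicate 2 (0.0608).

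Nrp2 (ENSMUSG00000025969, chromosome 1, 62703285 to 62818695, plus strand) had 41.9, 36.2 and 39.5 CPM in WT, 59.2 CPM in Tlr7-/- replicate 1 and 29.3 and 26.1 CPM in replicates 2 and 3. Replicate 1 was above the WT range and replicates 2 and 3 were below it. On the log2 scale Nrp2 differed from WT by 0.59 ± 0.11 (SE; edgeR adjusted p = 0.0344) in replicate 1 and by -0.50 ± 0.09 (SE; edgeR adjusted p = 0.00144) in replicates 2 and 3, and the difference between the 2 parts was -1.10 ± 0.11 (SE; edgeR adjusted p = 0.000249), or 2.14-fold. Over the whole Tlr7-/- group the log2 fold change was -0.04 ± 0.30 (SE). The call in replicate 1 was lost without WT replicate 1 or WT replicate 2 (up to 0.145). Both neuropilins are also known from blood vessels and connective tissue. The summed level of 8 endothelial markers was 18.1 to 20.4 CPM in WT, 20.9 CPM in replicate 1 and 16.6 and 14.5 CPM in replicates 2 and 3, with Cdh5 at 0 in all 6 libraries and Cldn5, Tek and Ly6c1 at 0 in some. Egfl7 made up most of that sum, at 15.3 to 18.2 CPM in WT and 18.4 CPM in replicate 1, and was lower in replicates 2 and 3 (-0.35 ± 0.12, SE; edgeR adjusted p = 0.0354). The 8 markers of mural, fibroblast and meningeal cells summed to 25.0 to 28.9 CPM in WT, 40.3 CPM in replicate 1 and 25.8 and 22.7 CPM in replicates 2 and 3, and 2 of the 6 tested, Rgs5 and Dcn, were higher in replicate 1 (0.889% of all genes). Dcn was lower in replicates 2 and 3 (-0.91 ± 0.15, SE; edgeR adjusted p = 0.00104), with 10.7, 9.91 and 10.7 CPM in WT and 20.6, 6.46 and 4.62 CPM in Tlr7-/- replicates 1 to 3. The list did not move as a whole. In replicate 1, Col1a2 (-1.08 ± 0.92, SE) and Lum (-0.70 ± 0.45) had negative log2 fold changes and Pdgfrb had 0.05 ± 0.21. In replicates 2 and 3, 2 of the 6 tested were negative, and the median of the 6 was 0.23. The part of such cells in the neuropilin results was not tested.

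GC content moved with the differences in Tlr7-/- replicates 2 and 3. Across genes, the rank correlation of GC content with the log2 fold change against WT was -0.414 over the 30 members and -0.543 over 13935 tested genes, as a description, since genes share the same libraries. In replicate 1 it was -0.306 and -0.132. With the trend of the libraries on GC content and transcript length taken out, 11 of the 30 genes were called in replicates 2 and 3 (32.7% of all genes). Of the 12 called before, 5 were still called in the same direction and 4 changed direction. Sema3a had 0.39 (edgeR adjusted p = 0.00724), Plxna3 0.29, Sema3e -0.90, Nrp2 -0.65 and Plxnb3 -1.09.

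Sema6b moved from -0.74 to 0.11, Sema6c from -0.34 to 0.15, Sema3d from 0.48 to -0.16 and Plxna2 from 0.35 to -0.01, so the direction of these 4 genes in replicates 2 and 3 rests on whether the trend is kept. Sema3c fell just short of the threshold at 0.29 (edgeR adjusted p = 0.0561). Plxna1 at 0.09 (edgeR adjusted p = 0.204) and Sema5b at -0.11 (edgeR adjusted p = 0.606) fell far short of it. Genes called after the removal alone were Plxnd1 (0.37), Sema4a (0.43), Sema4b (0.30) and Sema4g (0.28), all higher, and Sema5a (-0.49) and Sema6a (-0.22), both lower. In replicate 1, where 1.31% of all genes were called after the removal, Nrp1 kept its call at 0.74 (edgeR adjusted p = 0.0151) and Nrp2 narrowly lost it at 0.52 (0.0501). Between replicates 2 and 3 and replicate 1, the removal took Sema3d from 1.19 to 0.69 and Sema3c from 0.41 to 0.11. What the trend comes from was not tested.

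**Figure D4:**
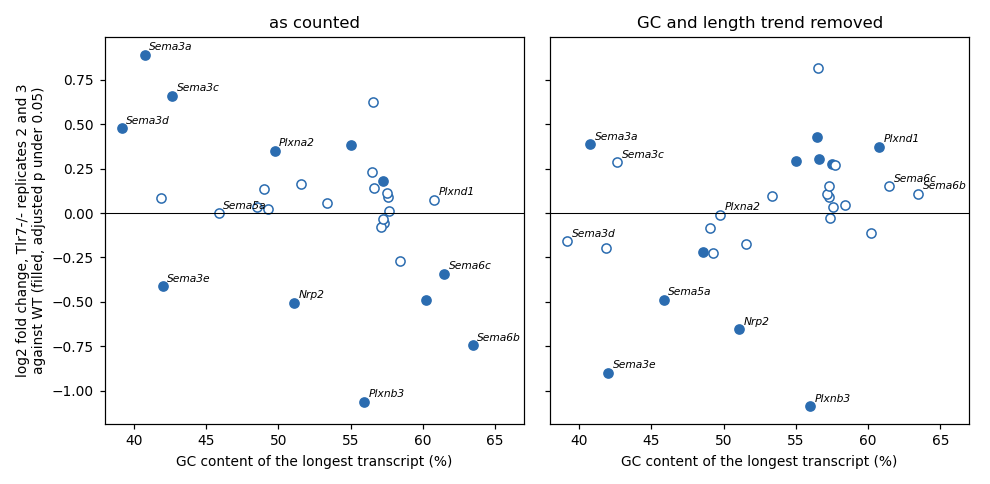
The log2 fold change of the 30 tested genes in Tlr7-/- replicates 2 and 3 against WT, plotted on the GC content of the longest transcript, as counted (left) and with the GC and length trend of each library removed (right); filled points have an edgeR adjusted p under 0.05. Sema6b and Sema6c, at the high end of GC content, go from below 0 on the left to above 0 on the right, and Sema3e, Nrp2 and Plxnb3 stay below 0.

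Beyond the ligands and receptors, 44 other genes of semaphorin signalling (co-receptors and cytoplasmic partners) were listed, of which 42 were tested. In the genotype comparison 0 passed the edgeR test (0.0% of all genes) and 19 had an unadjusted p under 0.05 (28.2%). The 6 with the smallest p were Rock2, a kinase that acts on the cytoskeleton (0.49 ± 0.08, SE), Dpysl4, of the collapsin response mediator family (-0.35 ± 0.07), Arhgef12, a partner bound by B-type plexins (0.36 ± 0.07), Chl1, an adhesion molecule that associates with Nrp1 (0.50 ± 0.11), Met, a receptor tyrosine kinase that associates with B-type plexins (0.68 ± 0.15), and Limk1, the kinase of cofilin (-0.55 ± 0.13). Their edgeR adjusted p ran from 0.112 to 0.116. With the GC and length trend removed, 3 of these came close to 0, namely Rock2 (0.09), Arhgef12 (0.07) and Chl1 (0.02), and Met (0.40), Dpysl4 (-0.29) and Limk1 (-0.39) kept their direction. In Tlr7-/- replicates 2 and 3, 13 of the 42 were higher and 12 lower (24.4% and 25.2% of all genes), and in replicate 1 none passed (1.43%).

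The 4 with the smallest p in replicates 2 and 3 were Met (0.84 ± 0.07, SE), Gipc1, a scaffold that binds neuropilins (-0.68 ± 0.07), Rock1 (1.10 ± 0.12) and Chl1 (0.60 ± 0.07), with edgeR adjusted p of 2.18e-05, 7.07e-05, 9.95e-05 and 0.000102. With the GC and length trend removed, Met had 0.49 and Rock1 0.54, whereas Chl1 had -0.04 and Gipc1 0.03, so neither of the last 2 kept its difference.

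The authors' deposited table of their own comparison gave all 31 genes. In that table, Plxnb3 alone of the 31 had a false discovery rate under 0.05 (0.0171), with a log2 fold change of -0.92. Sema3a had 0.56, Sema6b -0.54, Sema3c 0.48 and Sema5b -0.45 in the authors' deposited table, with false discovery rates of 0.237, 0.12, 0.167 and 0.202. The signs of these 5 were those found here over the whole Tlr7-/- group. Both comparisons come from the same series, so this is no separate evidence. Plxnd1, Sema4d, Sema4f and Sema4g, with small differences in both, had opposite signs.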

How the data were processed

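Messenger RNA was counted per gene in 6 libraries, grouped by the genotype in the labels. The authors deposited a table of raw counts per gene, named total counts in its header, which was used for all tests. Its RPKM values, scaled by the authors to gene length and mapped reads, were used to compare genes. The deposited TPM values were not used beyond a check of their unit. A second deposited table holds the authors' log2 fold changes, mean log2 CPM, p-values and false discovery rates, from edgeR per the name of the table, with normalization and settings not given in the sources used here. Per the submitters' processing notes, bcl2fastq, HISAT2, featureCounts and edgeR were used on build GRCm38.p6, with no version or role given. Total counts of 23272450 to 25696625 per library set the precision, and intervals cover the spread between libraries.

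Genes were filtered with filterByExpr (13947 of 25814 kept) and scaled by TMM. Genotypes were compared with edgeR 4.0.16 in R 4.3.3 (robust glmQLFit, two-sided glmQLFTest) and Benjamini-Hochberg adjustment over all genes tested, with a threshold of 0.05. A second fit had WT, Tlr7-/- replicate 1 and Tlr7-/- replicates 2 and 3 as groups. GC content and length came from GENCODE M21 (99.9% of genes matched, and all 31 members at the deposited position); their trend was removed with natural splines of 5 degrees of freedom. None of the 31 genes overlaps another gene with counts in its exons or introns. Other alternatives were DESeq2 1.42.0, other scalings, no filter, limma 3.58.1 on log2(RPKM + 0.1, 0.5 or 1), the naming style as a covariate, a replicate block and each library left out in turn. Sema3g, below the filter, was tested by exact permutation of its CPM (scipy 1.17.1). The 95% intervals are the log2 fold change with 1.96 SE on each side. They are approximate and narrower than the edgeR test implies. For Sema3a between genotypes the interval was 0.08 to 1.15, while the unadjusted edgeR p was 0.0602. Figures were drawn with matplotlib 3.10.9.

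Every member is named. Of the 44 signalling partners, the 6 with the smallest p between genotypes and the 4 with the smallest p in replicates 2 and 3 are named. Marker genes were named by no single rule. Some were named for their WT level, and others for a test result, a direction, a share of a sum or an absence of counts. The members, lists and tests were chosen with earlier results of these data known. The markers Bcl11b and Itgam were not analysed here. No replicate pairing was used, since the labels name none.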

Additional observations from a re-analysis of the deposited data

How the results depend on the processing

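Between genotypes, edgeR called 0 members, and DESeq2 called 2. With naming style as a covariate the genotype term is the replicate 1 comparison itself, with its 2 calls (Nrp1 and Nrp2). Leaving out a library gave 0 to 11 members, the 11 without Tlr7-/- replicate 1. Over all genes the count of 0 became 1785 with DESeq2, 200 with the style covariate, 1 with the GC and length trend removed and 1 with no expression filter, and 0 to 6922 with a library left out. With the replicate block 0 members and 0 genes were called, also with the trend removed. The deviations of same-numbered libraries correlated at 0.241, -0.0839 and 0.264. Differently numbered libraries were not compared, so these values cannot decide whether the numbers pair the libraries. In Tlr7-/- replicate 1, the 2 calls became 1 with the trend removed and 0 to 3 with a library left out. The 200 genes called there became 444 with DESeq2, 320 in a fit on these libraries only, 353 with no expression filter and 18 to 355 with a library left out (18 without WT replicate 2, 34 without WT replicate 1). In replicates 2 and 3, 9 to 14 members were called over all alternatives, and 7 to 11 between the parts of the Tlr7-/- group. Of the signalling partners, 25 were called in replicates 2 and 3 and 15 with the trend removed. With the style covariate Nrp2 went from -0.04 to 0.59. Other members changed sign there too, such as Sema3a (0.61 to -0.18), Sema3d (0.18 to -0.72), Sema3b (0.42 to -0.09) and Plxna3 (0.25 to -0.07). Removing the trend changed the sign of several genes that passed the edgeR test before or after it. In replicates 2 and 3 against WT these were Plxna2 (-0.010), Sema3d (-0.16), Sema5a (-0.49), Sema6a (-0.22), Sema6b (0.11) and Sema6c (0.15). Between the parts of the Tlr7-/- group they were Sema5a (-0.32) and Sema6b (0.20). Members that passed neither time changed sign too, such as Plxna4 (0.17 to -0.18), Nrp1 (0.08 to -0.20) and Plxnc1 (0.02 to -0.23) against WT. Between the parts Sema6c (-0.28 to 0.24) and Sema5b (-0.18 to 0.21) did so. The cause was not tested. Limma on RPKM called 0 members between genotypes at each pseudocount. Low counts limit Sema3b and Sema3g.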
